A study of Mus musculus with 7 samples.

Results

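Nucleolar ribosome biogenesis factors are the proteins that turn the ribosomal RNA (rRNA) precursor into ribosomal subunits, and 60 of their genes were followed in mouse CD8+ T cells treated with leukemic or healthy vesicles. The 60 genes were listed by symbol and by textbook role, all 60 were in the count table, and all 60 were among the 12623 genes tested of 55367 listed. The list was drawn up with earlier results of these data known, so it was not independent of them, and no p is given for the 60 genes as a set.

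Ribosomes are built in the nucleolus, where RNA polymerase I transcribes the rRNA precursor. Box C/D particles methylate that precursor and box H/ACA particles convert some of its uridines to pseudouridine, while the small subunit (SSU) processome and the large-subunit factors fold, cleave, and export the pre-40S and pre-60S particles. A T cell that leaves quiescence enlarges its nucleoli and raises ribosome production as it grows.

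All 7 cultures held CD8+ T cells sorted by FACS from the spleens of Foxp3 YFP/cre mice, in which the Foxp3 locus drives YFP and Cre, and were kept for 48 hours with 100 μg/mL of small extracellular vesicles (sEV). The cells of 3 libraries received LME-sEVs, which were purified from the leukemia microenvironment in spleens of Eμ-TCL1 mice, a model in which B cells express the TCL1 oncogene and develop a disease like chronic lymphocytic leukemia. The cells of 4 libraries received HCME-sEVs from spleens of healthy mice, so there was no culture without vesicles among the samples analysed here. For CD8+ T cells in culture, the methods of the study name coated anti-CD3, anti-CD28, and IL2, which stimulate T cells, without a difference between groups. They do not single out these cultures. Dose and group sizes are those of the labels. The methods instead describe an amount matched to each kind of spleen, so equal doses in both groups are not certain, and a legend of the study gives the group sizes the other way round. The labels give neither the age of the mice nor whether a library is 1 mouse or 1 vesicle preparation, and p-values therefore measure only the spread between these libraries, which may be technical.

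RNA was read at the 3′ ends of polyadenylated transcripts, with 1 count per captured molecule, so that gene length does not enter a level. Totals per library ranged from 3689831 to 5030522 counts, and 3 counts, taken as the lowest level that can be shown, corresponded to 0.596 to 0.813 CPM, where CPM are counts relative to library size. Levels are CPM after TMM normalization, fold changes are log2 of LME-sEVs over HCME-sEVs, and a gene was called lower or higher at a false discovery rate (FDR) under 0.05 in the quasi-likelihood test of edgeR, adjusted after Benjamini and Hochberg over every tested gene. A DEG also had a log2 fold change beyond 1 in either direction. The CD8 T cell markers summed to 3440 to 3490 CPM with HCME-sEVs and 3700 to 4120 CPM with LME-sEVs, whereas the CD4 T cell markers stayed at 0.964 to 1.60 CPM in every library.

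Some promoters of the members held a CACGTG, the palindrome known as the E-box, and upstream sequences that carry it are shown. Of the 60 genes, 53 had a promoter entry in RefSeq on GRCm38.p6, which runs from 250 bases before to 50 bases after a transcription start. Bop1, Fbl, Gnl2, Npm1, Rrp12, Rrs1, and Tcof1 had none. An E-box lay in 12 of the 53 genes (22.6%), against 8.09% of all genes with an entry and 11.8% of the tested ones. In Imp4, Nop2, and Utp18 it lay before the start, and in Grwd1, Ltv1, Mybbp1a, Pes1, Pno1, Tsr1, Utp20, Utp4, and Wdr43 it lay just after it. The 250 bases before the start are printed 5′ to 3′ for Nop2 (chr6:125131633-125131882, plus strand) and Utp18 (chr11:93885767-93886016, minus strand), and a window of 26 bases is printed for Imp4 (chr1:34439698-34439723, plus strand). Capitals mark the E-box, which begins 60, 20, and 121 bases before the start, respectively.
Nop2: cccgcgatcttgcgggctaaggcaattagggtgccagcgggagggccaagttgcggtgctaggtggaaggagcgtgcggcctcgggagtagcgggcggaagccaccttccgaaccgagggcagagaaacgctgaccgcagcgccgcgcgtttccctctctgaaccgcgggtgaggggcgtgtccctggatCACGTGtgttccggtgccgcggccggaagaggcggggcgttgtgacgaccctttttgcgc
Utp18: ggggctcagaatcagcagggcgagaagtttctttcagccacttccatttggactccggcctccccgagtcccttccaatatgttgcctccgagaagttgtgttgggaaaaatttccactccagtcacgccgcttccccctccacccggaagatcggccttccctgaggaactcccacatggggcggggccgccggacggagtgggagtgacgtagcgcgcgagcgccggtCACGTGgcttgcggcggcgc
Imp4: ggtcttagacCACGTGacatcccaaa

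The core of ETS factor sites, CCGGAAG, was found on either strand in 20 of the 53 genes (37.7%), against 9.93% of all genes with an entry and 21.4% of the tested ones. The TATA box, searched as TATAAA on both strands, was in 2 genes (3.77%), against 15.7% of all and 8.66% of the tested genes. All 12 members with an E-box were called lower, with a median log2 fold change of -0.43, and 30 of the 41 without one were called lower, with a median of -0.40. Of the 12, Imp4 and Ltv1 lay close to the threshold and were each called in 6 of 15 alternative analyses. Over all tested genes with an entry, 6.95% of the 1094 with an E-box were called lower, with a median of -0.03, and 5.13% of the 8153 without, with a median of 0.01. These matches describe letters in a window and say nothing of which factor bound there.

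With LME-sEVs, the nucleolar ribosome biogenesis factors had members called lower in each of the functional classes listed, from the snoRNA particles to 60S assembly. Of the 60 genes, 46 were called lower and 0 higher, where 5.21% of all tested genes were called lower and 3.75% higher by the same test. The 14 others were not called, although their fold changes were also below 0. At an unadjusted p under 0.05, 54 members were below 0 and 0 above, where 1548 and 1316 of the 12623 tested genes were. DESeq2 called 44 members lower and 0 higher, and limma-voom called 47 and 0. They called 4.45% and 4.98% of all tested genes lower, respectively. The median log2 fold change of the 60 genes was -0.40, a level of 75.6% of that with HCME-sEVs, and the quartiles were -0.45 and -0.30. Over all tested genes the median was 0.01 and 48.5% of fold changes were below 0, against 60 of 60 members. The drop was modest for each gene, and 0 members were DEG, where 1.28% of all tested genes were. DEG were rare at this depth. Of the 5828 tested genes with at least the mean count of the least counted member, 7 were DEG with a lower and 6 with a higher level.

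The number of calls depended on the libraries of both groups, and most on LME-sEV 2 and LME-sEV 3. Without LME-sEV 2, 18 members were called lower, when 393 of all tested genes were called in place of 1131, and without LME-sEV 3, 24 were, of 461 genes called in all. Without HCME-sEV 2, 34 members were called lower, of 716 genes called in all. The fold changes stayed below 0 for all 60 genes whichever library was left out. With library size only in place of TMM, 35 members were called lower, and the share of lower genes among all calls was 43.1% in place of 58.2%.

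**Figure D1:**
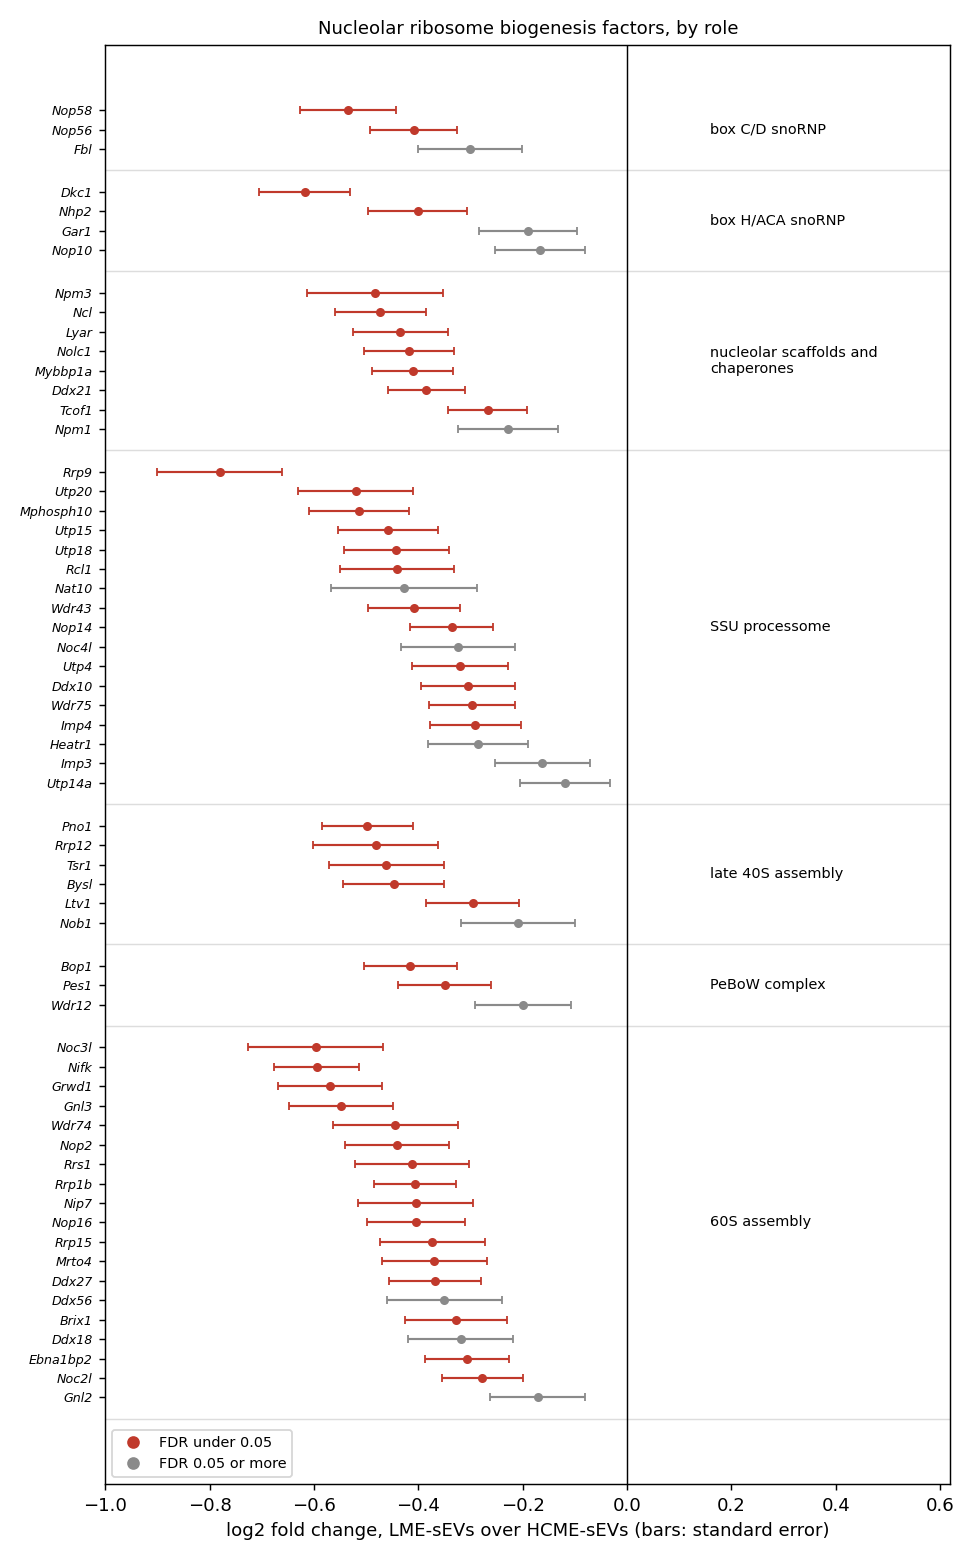
Log2 fold change (LME-sEVs over HCME-sEVs, horizontal axis) of each of the 60 genes, grouped by role, with bars for the standard error of the edgeR fit and red points for an FDR under 0.05. Every point lies left of 0, from -0.78 for Rrp9 to -0.12 for Utp14a.

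Levels separated the groups in most members without any model. In 47 of the 60 genes (78.3%) every LME-sEV library was below every HCME-sEV library, where this held for 10.8% of all tested genes. In the 13 others the groups overlapped. Ddx10, Tsr1, Rrs1, and Nip7 were called lower although their groups overlapped, and Fbl, Noc4l, Nat10, Nob1, and Ddx56 did not overlap but were not called. The members are well expressed, with a median of 106 CPM, and better counted genes were called more often. Among the 1808 other genes with mean counts between 327 and 858.9, the quartiles of the members, 189 (10.5%) were called lower and 362 (20%) separated downward, with a median log2 fold change of -0.05. In that range, 22 of 30 members (73.3%) were called lower and 21 separated downward, with a median of -0.33.

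Together the 60 genes held 1.68% ± 0.094 (SD, n = 4) of all counts with HCME-sEVs and 1.34% ± 0.095 (SD, n = 3) with LME-sEVs. Single libraries held 1.79%, 1.68%, 1.56%, and 1.67% with HCME-sEVs and 1.44%, 1.25%, and 1.33% with LME-sEVs. The groups did not overlap, HCME-sEV 1 was the highest library, and LME-sEV 2 the lowest. LME-sEV 2 was the lowest library for 28 members and LME-sEV 3 for 23, and HCME-sEV 1 was the highest for 28 members and HCME-sEV 2 for 18. In bulk cultures, fewer cells that express these genes and less RNA of them per cell cannot be told apart.

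**Figure D2:**
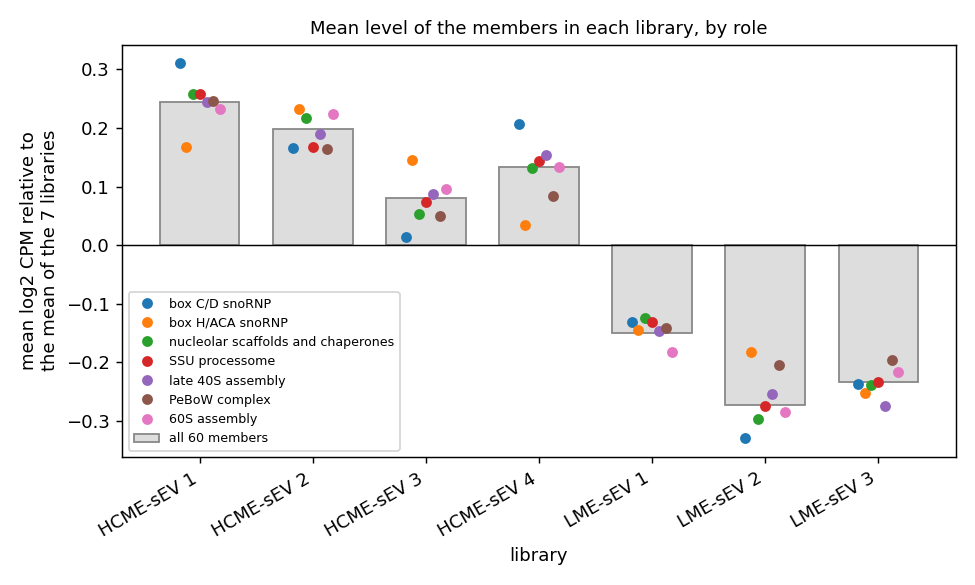
Mean log2 CPM of the members relative to the mean of the 7 libraries (vertical axis) for each library, with grey bars for all 60 genes and points for each role. The bars run from 0.24 in HCME-sEV 1 to -0.27 in LME-sEV 2, and every role lies above 0 in the 4 HCME-sEV libraries and below 0 in the 3 LME-sEV libraries.

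The box C/D particles, which guide 2′-O-methylation of rRNA, had less RNA of both scaffold subunits. Nop58 (chr1:59684971-59719044, plus strand, GRCm38) stood at 681, 618, 521, and 535 CPM with HCME-sEVs and at 445, 380, and 396 CPM with LME-sEVs. Each LME-sEV library was below the lowest HCME-sEV library, and the log2 fold change was -0.53 ± 0.092 (SE, FDR = 0.00125, edgeR). Its partner Nop56 had a log2 fold change of -0.41 (FDR = 0.00419, edgeR). Fbl, which encodes the methyltransferase fibrillarin, was not called, with a log2 fold change of -0.30 (FDR = 0.0796, edgeR) and groups that did not overlap by a narrow margin (89.2 to 122 CPM against 78.0 to 88.8 CPM).

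In the box H/ACA particle, 2 of 4 genes were called lower, with a median log2 fold change of -0.30. Dkc1 (chrX:75095854-75109777, plus strand), which encodes the pseudouridine synthase dyskerin and is also part of telomerase, stood at 795, 742, 641, and 647 CPM with HCME-sEVs and at 506, 443, and 433 CPM with LME-sEVs. The groups lay far apart, with a log2 fold change of -0.62 ± 0.088 (SE, FDR = 0.000256, edgeR). Nhp2 was also called lower (log2 fold change -0.40, FDR = 0.0112, edgeR). Gar1 and Nop10 overlapped between the groups and were not called, with log2 fold changes of -0.19 (FDR = 0.237, edgeR) and -0.17 (FDR = 0.260, edgeR).

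Whether subunits of a complex moved unequally was asked directly, after the values had been seen, from the ratio of their CPM in each library. The 15 pairs within the box C/D, box H/ACA, PeBoW, and Mpp10 complexes were compared with an exact permutation test (two-sided), which has 35 arrangements of the 7 libraries and cannot give a p below 0.0286. The ratio of Dkc1 to Nhp2 was 7.53, 6.64, 6.85, and 7.02 with HCME-sEVs and 6.37, 5.56, and 6.17 with LME-sEVs, a log2 difference of -0.22 (exact permutation p = 0.0286). The log2 ratio of Dkc1 to Gar1 differed by -0.43 (exact permutation p = 0.0571), and that of Mphosph10 to Imp3 by -0.35 (exact permutation p = 0.0571). After adjustment over the 15 pairs the smallest p was 0.214. With so few libraries a lone pair cannot pass that adjustment at any size of difference, so the comparison does not tell equal from unequal change.

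Nucleolar scaffolds and chaperones include the most abundant members, and 7 of these 8 genes were called lower, with a median log2 fold change of -0.41. Ncl (chr1:86344719-86359400, minus strand), which encodes nucleolin, a major RNA-binding protein of the nucleolus, stood at 3210, 3090, 2710, and 3110 CPM with HCME-sEVs and at 2460, 1940, and 2150 CPM with LME-sEVs. No library overlapped, and the log2 fold change was -0.47 ± 0.087 (SE, FDR = 0.00200, edgeR). Npm1, which encodes the histone and ribosome chaperone nucleophosmin, had the highest level of all members, at 4200, 3330, 3140, and 3460 CPM with HCME-sEVs and 3290, 2690, and 3060 CPM with LME-sEVs. LME-sEV 1 lay above HCME-sEV 3, and Npm1 was not called (log2 fold change -0.23 ± 0.095, FDR = 0.149, edgeR). Ncl and Npm1 together took 37.4% to 40.4% of the member counts of a library, in both groups alike.

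Npm3, a relative of Npm1 that forms oligomers with it, had the largest change of this class at a much lower level. It stood at 38.8, 40.3, 32, and 31.4 CPM with HCME-sEVs and at 24.2, 26.5, and 25.6 CPM with LME-sEVs, without overlap (log2 fold change -0.48 ± 0.13, FDR = 0.0193, edgeR). Mybbp1a, a nucleolar partner of transcription factors, fell by 0.41 on the log2 scale (FDR = 0.00234, edgeR), and Ddx21, an RNA helicase that joins rRNA transcription to processing, fell by 0.39 (FDR = 0.00288, edgeR). Nolc1, which encodes the snoRNP chaperone Nopp140, fell by 0.42 (FDR = 0.00444, edgeR), and Lyar by 0.44 (FDR = 0.0051, edgeR). Tcof1, which encodes treacle, an organizer of rRNA transcription, fell by 0.27 (FDR = 0.0317, edgeR).

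The SSU processome, which assembles on the nascent precursor around the U3 snoRNA, had 17 genes, of which 12 were called lower, with a median log2 fold change of -0.34. Rrp9 (chr9:106475963-106485424, plus strand), which encodes a protein specific to the U3 particle, changed the most of all members. Its level was 56.6, 56.8, 50.7, and 42.6 CPM with HCME-sEVs and 32.6, 31.7, and 26.4 CPM with LME-sEVs, or 58.2% of the HCME-sEV level in the fit. The groups did not overlap, and the log2 fold change was -0.78 ± 0.12 (SE, FDR = 0.000641, edgeR). Wdr43, the best expressed gene of the class and part of the complex that loads on the nascent precursor first, stood at 587, 553, 494, and 520 CPM with HCME-sEVs and at 468, 386, and 365 CPM with LME-sEVs. It was lower without overlap (log2 fold change -0.41 ± 0.088, FDR = 0.00648, edgeR).

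The other genes of the SSU processome are given by subcomplex. Of the early-loading UTP-A genes, Utp15 (log2 fold change -0.46), Utp4 (-0.32), and Wdr75 (-0.30) were called lower, whereas Heatr1 was not (-0.29, FDR = 0.0672, edgeR). Of the Mpp10 complex, Mphosph10 fell by 0.51 (FDR = 0.00231, edgeR) and Imp4 by 0.29 (FDR = 0.0399, edgeR), and Imp3 was not called (-0.16, FDR = 0.306, edgeR). Utp20 (-0.52), Utp18 (-0.44), Rcl1 (-0.44), Nop14 (-0.34), and the helicase gene Ddx10 (-0.30) were called lower. Nat10, which encodes the cytidine acetyltransferase of the small-subunit rRNA, missed the threshold with a log2 fold change of -0.43 ± 0.14 (FDR = 0.0518, edgeR) at 18.7 to 32.3 CPM. Noc4l (-0.32, FDR = 0.081, edgeR) and Utp14a (-0.12, FDR = 0.457, edgeR) were not called either.

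Of the 6 genes of late 40S assembly, 5 were called lower, with a median log2 fold change of -0.45. Pno1 (chr11:17203198-17211568, minus strand), which encodes the partner of the Nob1 nuclease, was at once the best expressed and the most changed of them. It stood at 126, 118, 118, and 107 CPM with HCME-sEVs and at 83.1, 87.2, and 78.7 CPM with LME-sEVs. The groups were well apart, with a log2 fold change of -0.50 ± 0.087 (SE, FDR = 0.00136, edgeR). Rrp12 (-0.48), Tsr1 (-0.46), Bysl (-0.45), and Ltv1 (-0.30), which act in the maturation and export of pre-40S particles, were called lower. Nob1, whose product makes the last cut of the small-subunit rRNA, was not called (-0.21, FDR = 0.254, edgeR), although its groups did not overlap (37.3 to 41.9 CPM against 32.6 to 35.1 CPM).

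In the PeBoW complex, which is needed to process the large-subunit rRNA, 2 of 3 genes were called lower. Bop1 (chr15:76452989-76477277, minus strand) varied little within groups, at 67.7, 69.4, 67.8, and 68.9 CPM with HCME-sEVs and at 50.3, 53.0, and 50.6 CPM with LME-sEVs. The groups did not overlap (log2 fold change -0.42 ± 0.090, FDR = 0.0065, edgeR). Pes1, which encodes pescadillo, was also called lower (-0.35, FDR = 0.0178, edgeR). Wdr12 had the highest level of the 3, at 214, 192, 166, and 176 CPM with HCME-sEVs and 174, 149, and 166 CPM with LME-sEVs. Its groups overlapped and it was not called (-0.20 ± 0.092, FDR = 0.198, edgeR).

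**Figure D3:**
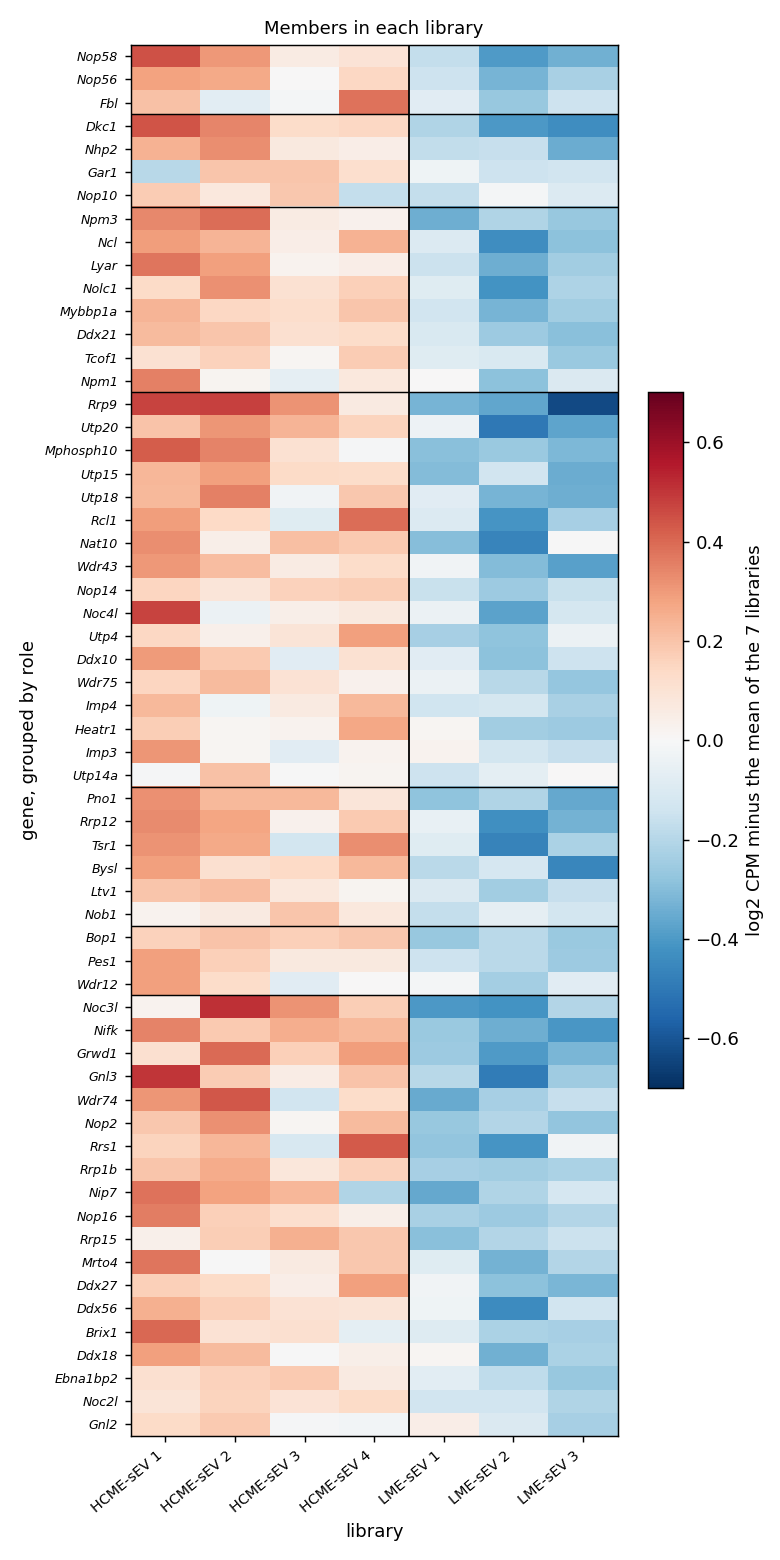
Log2 CPM minus the mean of the 7 libraries (colour) for each of the 60 genes (rows, by role) in each library (columns, with a black line between the groups). Red fills most of the 4 HCME-sEV columns and blue most of the 3 LME-sEV columns, and exceptions such as Gar1 in HCME-sEV 1 and Nop10 in HCME-sEV 4 stand out.

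Among the 19 genes of 60S assembly, 16 were called lower, with a median log2 fold change of -0.40. Nifk (chr1:118321839-118333822, plus strand), which encodes a nucleolar partner of the proliferation protein Ki-67, had the smallest FDR of all members. It stood at 174, 155, 163, and 160 CPM with HCME-sEVs and at 114, 108, and 103 CPM with LME-sEVs. The distance between the groups was several times their spread, with a log2 fold change of -0.60 ± 0.081 (SE, FDR = 0.000185, edgeR). Gnl3, which encodes the GTPase nucleostemin, was the best expressed, at 501, 400, 367, and 407 CPM with HCME-sEVs and 310, 252, and 298 CPM with LME-sEVs. It was lower without overlap (-0.55 ± 0.099, FDR = 0.00167, edgeR).

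Noc3l had the largest change of the class. It stood at 31.8, 44.6, 38.9, and 35.2 CPM with HCME-sEVs and at 23.7, 23.4, and 27.1 CPM with LME-sEVs, without overlap (log2 fold change -0.60 ± 0.13, FDR = 0.0069, edgeR). Its heterodimer partner Noc2l fell less, by 0.28 (FDR = 0.0275, edgeR), and the difference between them was not tested. Grwd1, which encodes a chaperone of ribosomal protein uL3, fell by 0.57 (FDR = 0.00153, edgeR), and Nop2, which encodes a cytosine methyltransferase of the large rRNA, by 0.44 (FDR = 0.00819, edgeR). Rrp1b (-0.41), Nop16 (-0.40), Rrp15 (-0.37), Ebna1bp2 (-0.31), Brix1 (-0.33), and the 5S particle factor Rrs1 (-0.41) were called lower. So were Nip7 (-0.41), Wdr74 (-0.44), the stalk assembly factor Mrto4 (-0.37), and the helicase gene Ddx27 (-0.37). The helicase genes Ddx56 (-0.35, FDR = 0.0511, edgeR) and Ddx18 (-0.32, FDR = 0.0516, edgeR) just missed the threshold, and the GTPase gene Gnl2 was not called (-0.17, FDR = 0.276, edgeR).

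Some members also carry small RNAs. On GRCm38 (GENCODE vM21), Nop56, Nop58, Dkc1, Ncl, Wdr43, Tsr1, and Gnl3 hold snoRNA genes of the same strand within their bounds. All 7 hosts were called lower, with a median log2 fold change of -0.47, as were 39 of the 53 other members, with a median of -0.37. The hosted snoRNAs, which as a class are not polyadenylated, had at most 15 counts in a library. The best counted were Snord92 (4 to 15 counts) and Snord110 (2 to 12 counts), and neither was called (FDR = 0.582 and 0.262, edgeR).

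Counts of some members are less certain than their error shows. An exon of another gene lies on the opposite strand of 22 members, Rrp9, Dkc1, Pno1, Bop1, Gnl3, and Grwd1 among them, and the strand setting of the counting is not given in the sources used here. Exons on the same strand overlap Nop56, Nop58, Ncl, and Gnl3 and belong to small RNA genes. Stretches near-identical to 3′ ends of Nop56, Npm1, Npm3, Pes1, Wdr12, Ddx18, and Mrto4 occur in transcripts of other genes. The counts of those genes reached at most 13.6% of the counts of Wdr12 and at most 2.04% of those of the others. For Wdr12 they include Pms1 and Vmn1r88, which are genes of their own and not copies.

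The rest of the pathway was read from lists that do not overlap with the 60 genes. Of 88 other ribosome assembly factors, all tested, 29 (33%) were called lower and 0 higher, where 5.21% of all tested genes were called lower. A fold change below 0 was found in 83 of them, and the median log2 fold change was -0.27. Ftsj3, which encodes a methyltransferase of the pre-60S particle, had 229 ± 26.1 CPM over 4 HCME-sEV libraries and 149 ± 14.0 CPM over 3 LME-sEV libraries (means ± SD, as for the genes that follow), a log2 fold change of -0.62 (FDR = 0.000435, edgeR). Rpf2, a 5S particle factor, went from 244 ± 32.6 to 171 ± 10.5 CPM (-0.52, FDR = 0.00202, edgeR). Without LME-sEV 2, 6 of the 88 were called lower, without LME-sEV 3, 7, and without HCME-sEV 2, 11. The number was 16 without HCME-sEV 1 or LME-sEV 1, 18 without HCME-sEV 4, and 36 without HCME-sEV 3. With library size only, 13 were called lower.

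Of the 15 tested genes of rRNA transcription, 5 (33.3%) were called lower and 0 higher, against 5.21% called lower of all tested genes. Their median was -0.18. Cd3eap, which encodes a subunit of RNA polymerase I, went from 74.7 ± 10.7 to 46.6 ± 8.11 CPM (-0.69, FDR = 0.00167, edgeR), and Polr1b, its second largest subunit, from 24.2 ± 1.21 to 14.7 ± 0.439 CPM (-0.71, FDR = 0.00247, edgeR). The 3 others were the initiation factor genes Ubtf, Taf1d, and Rrn3. Without LME-sEV 2, 3 genes of this list were called lower, without LME-sEV 3, 2 were, and without HCME-sEV 3, 7 were.

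The proteins that these factors assemble were not lower at the RNA level. Of 79 genes of cytosolic ribosomal proteins 78 were tested, of which 0 were called lower by edgeR, DESeq2, or limma-voom, and 1 was lower at an unadjusted p under 0.05. Of all 12623 tested genes, 5.21% were called lower by edgeR and 1548 were lower at an unadjusted p under 0.05. The median log2 fold change of the 78 was 0.11, and 67 were above 0. Of the 78, 5 were called higher, where 3.75% of all tested genes were. Rpl28 went from 678 ± 77.6 to 875 ± 30.4 CPM (0.37, FDR = 0.00925, edgeR) and Rpl17 from 811 ± 78.5 to 1030 ± 121 CPM (0.35, FDR = 0.016, edgeR). The 3 others were Rps15, Rpl29, and Rpl3. The number called higher was 2 without HCME-sEV 2 or LME-sEV 1 and 3 without HCME-sEV 3 or HCME-sEV 4. It was 0 without LME-sEV 2, 1 without LME-sEV 3, 7 without HCME-sEV 1, 7 with DESeq2, and 10 with library size only. The median stayed above 0 throughout.

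**Figure D4:**
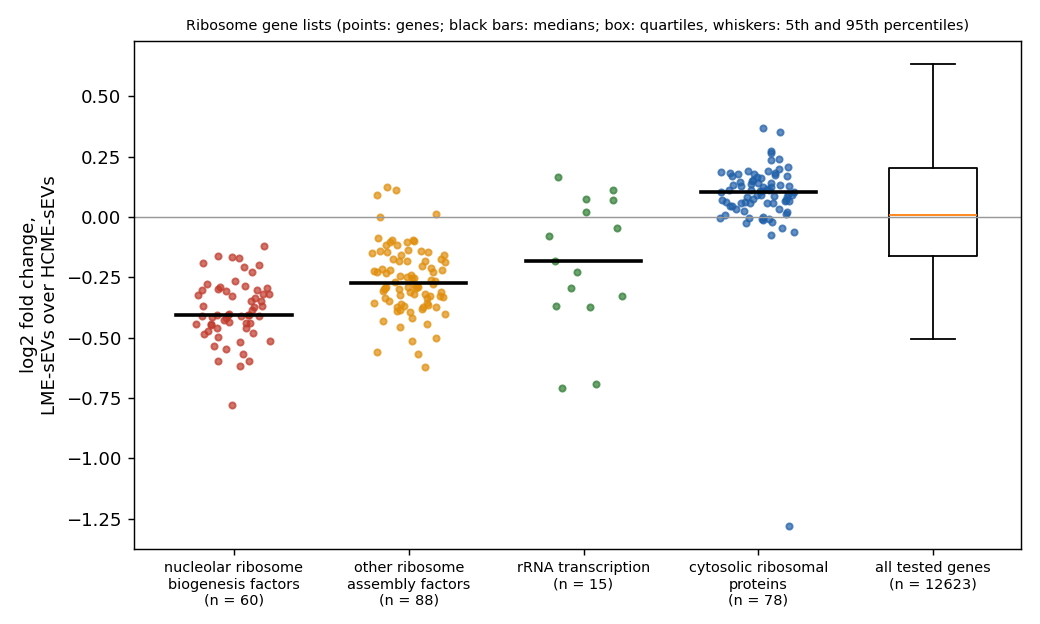
Log2 fold change (LME-sEVs over HCME-sEVs, vertical axis) of single genes (points) in the 60 biogenesis factors and 3 further lists, with black bars for medians, beside a box for all 12623 tested genes (quartiles, with whiskers to the 5th and 95th percentiles). The medians are -0.40, -0.27, -0.18, and 0.11, against 0.01 for all tested genes.

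Other measures moved with the same groups. For comparison, 5.21% of all tested genes were called lower and 3.75% higher. Of 8 markers of activated T cells, 4 were called lower, Il2ra (log2 fold change -0.61), Cd69 (-0.82), Tfrc (-0.48), and Gzmb (-0.35, with groups that overlapped). The others were not called: Tnfrsf9 (-0.255), Tnfrsf4 (-0.184), Cd44 (-0.038), and the proliferation marker Mki67 (0.039). The list summed to 3870 to 4220 CPM with HCME-sEVs and 3210 to 3380 CPM with LME-sEVs. Of 8 CD8 T cell markers, 2 were called higher, Cd3e and Cd3g, the latter with groups that overlapped. Erythroid and platelet markers summed to 74.7 to 182 CPM and 158 to 205 CPM, with 3 of 7 tested genes (8 listed) called higher. Basophil and mast cell markers summed to 10.1 to 39.3 CPM and 30.1 to 42.0 CPM, with 2 of 5 tested genes (7 listed) called higher. Both, Mcpt8 (log2 fold change 1.43, with groups that overlapped) and Prss34 (1.72, without overlap), were DEG. NK cell markers summed to 4.42 to 6.59 CPM and 6.79 to 9.42 CPM, myeloid markers to 97.6 to 133 CPM and 129 to 169 CPM, and B cell markers to 10.5 to 11.6 CPM and 9.89 to 11.9 CPM. Of these lists only 1 of 4, 1 of 9, and 3 of 8 genes had enough counts to be tested, and 0 of those were called. The myeloid sum was almost all Cst3 (94.7 to 165 CPM), and Itgam, named after its values were seen, had 0, 0, 0, and 1 counts with HCME-sEVs and 6, 8, and 6 counts with LME-sEVs. For the rest of that list, Lyz2, Csf1r, Cd14, Adgre1, Ly6g, S100a8, S100a9, and Cst3, the groups overlapped. Mean levels with LME-sEVs were not higher for Csf1r and Cd14 and were higher for the others. No list had a marker at 0 in every library, and the part of activation or of other cells in the lower level of the biogenesis factors was not tested.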

How the data were processed

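The authors sorted CD8+ T cells, prepared QuantSeq 3′ libraries with UMIs, trimmed reads (cutadapt 2.10), mapped them to GRCm38 (STAR 2.5.3a), collapsed UMIs (UMI-tools 1.0.0), and counted genes with featureCounts (Subread 2.0.0). The deposited values are raw counts per gene symbol, made by the authors without normalization. The annotation release and the strand setting are not given in the sources used here. The kit marks strand.

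A gene was tested where its counts averaged 5 or more over the libraries. Counts were TMM-normalized (factors 0.965 to 1.029) and tested with glmQLFit and glmQLFTest of edgeR 4.0.16 in R 4.3.3, with no covariate and Benjamini-Hochberg adjustment over all tested genes. The CPM are on TMM-adjusted library sizes, and log2 CPM used a prior count of 2. Replicates differed by more than counting noise in every pair (chi-square per degree of freedom 2.12 to 6.02), and the floor of 3 counts covers counting error only.

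The members and lists were chosen with earlier results of these data known. Per role, the value in every library is given for the gene with the smallest FDR, the highest mean CPM, and the largest absolute fold change, and of other lists the 2 genes with the smallest FDR in each direction are named. Further names were chosen after their values were seen. Coordinates are from GENCODE vM21 (GRCm38), near-identical ends from blast 2.17.0 over the last 300 bases at 95% identity over at least 200 bases, and promoters from RefSeq. Alternatives covered other scalings and filters, DESeq2 1.42.0, limma 3.58.1 (voom), the replicate number as a block, and leaving out each library. Test steps were tested on simulated data with fold changes larger than that of any member, so recovery of changes as small as these was not examined. Plots used Python 3.11.15 and matplotlib 3.10.9. Protein sequences were not analysed here. 1 gene of the lists is not reported by name here.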

Additional observations from a re-analysis of the deposited data

Results flagged for a closer look

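In each of 61 results (the 60 genes and their mean level), the 4 HCME-sEV libraries were searched for a lone library, by the gap to its nearest neighbour over the range of the group. Chance gives about 1 in 20, or 3.05 of 61, and 2 were found. For Utp14a the ratio was 0.874, because HCME-sEV 2 stood at 111 CPM and the next library at 97.5 CPM. For Tsr1 the ratio was 0.846, because HCME-sEV 3 stood at 83.0 CPM and the next library at 109 CPM. The 3 LME-sEV libraries were too few for this comparison.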

How the results depend on the processing

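Under 15 alternatives (3 scalings, 2 filters, 2 other tests, the replicate block, and 7 left-out libraries) all 60 genes kept a fold change below 0, 0 were called higher, and 0 were DEG. The median log2 fold change of the members lay between -0.42 and -0.36, and that of all tested genes at 0.06 at most. The number called lower was 46, 42, and 35 with DESeq2 size factors, upper-quartile factors, and library size only, 46 with filterByExpr, 45 with no filter, 44 with DESeq2, and 47 with limma-voom. Leaving out 1 library gave 18 to 49 members called lower and 393 to 1293 genes called in all, and the lowest numbers came without LME-sEV 2 (18) and LME-sEV 3 (24), whereas 37 members and 842 genes were called without LME-sEV 1, which leaves as many libraries. The cause was not tested. Of the member results, 773 kept their side of the threshold, 111 lost the call, 16 gained it, and 0 reversed. Under every alternative 15 genes were called lower: Nop56, Nop58, Dkc1, Ncl, Mybbp1a, Ddx21, Utp15, Mphosph10, Rrp9, Pno1, Bop1, Rrp1b, Nifk, Gnl3, and Grwd1. Npm1, Imp3, Utp14a, Nob1, Wdr12, and Gnl2 were called under none.

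The groups share replicate numbers 1 to 3, whose meaning the labels do not give. Deviations from the group means correlated at 0.072, 0.155, and 0.027 between libraries of the same number, and not every library correlated best with its own number. With the replicate block, 50 members (45 shared with the fit without it) and 1454 genes in all were called.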

Other observations

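The order of the HCME-sEV libraries was not the same in every class of member. For the box C/D genes, HCME-sEV 1 and 4 were highest (mean log2 deviations of 0.31 and 0.21) and HCME-sEV 3 lay near the mean of all libraries (0.01). For the box H/ACA genes, HCME-sEV 2 was highest (0.23) and HCME-sEV 4 lowest of its group (0.03). Among the LME-sEV libraries, LME-sEV 1 was the highest in all classes. Gar1 was lowest of all libraries in HCME-sEV 1 (116 CPM), which was the highest library for 28 members. These orders were seen in the data and were not tested.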
